A study of Homo sapiens with 9 samples.

Results

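The 10 genes described here were those whose signal lay on opposite sides of the control after the siRNAs against the 2 forms of MTDH: PIGW, ING3, KPNA1, CEP120, ARHGAP11A, MAD1L1, ALPK2, LHX4, CLDN1 and FOXD2-AS1. They were chosen from 12239 genes with a detected probe because the sign of the change against control differed between the siRNAs in the authors' log2 values of these same arrays. Every difference between groups given for the 10 genes is therefore a description and carries no test. The opposite directions are what chose them and are not a finding. All 17 array probes annotated to the 10 symbols were looked up, and 15 of them passed the detection filter.

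RNA of MDA-MB-231, a breast adenocarcinoma cell line without estrogen receptor, was measured on Illumina arrays in 1 colour. GEO's labels give 3 groups of 3 samples: untreated control cells, cells given 200 pmol of an siRNA against wild-type MTDH for 24 h (the WT knockdown) and cells given the same amount, for the same time, of an siRNA against a spliced MTDH isoform (the isoform knockdown). The study asked how each knockdown changes the expression profile relative to untreated cells. The second control was, at each of 47231 probes, the average of the other two and was left out, so 2 controls and 3 arrays of each knockdown are compared. No cells given an siRNA without a target were analysed here, so the act of transfection and the loss of MTDH cannot be told apart in either comparison with control. Both comparisons share the same 2 controls. Each form was targeted only in its own siRNA group, so the form targeted and the siRNA used cannot be told apart between the knockdowns. The knockdown signals were deposited with their probes in a different order and were matched back through the authors' log2 values, so which probe a knockdown value belongs to rests on those values. Whether replicates were separate cultures is not stated, and p-values therefore measure the spread between these samples alone, which may be technical.

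MTDH encodes metadherin, a membrane- and nucleus-associated protein linked to metastasis and to several growth signalling pathways. A small interfering RNA directs the cleavage of transcripts that pair with it. The 10 genes do not form a known pathway. PIGW and CLDN1 act at membranes, ING3, KPNA1 and LHX4 in the nucleus or in transport into it, CEP120, MAD1L1 and ARHGAP11A in centrosome, spindle and cytoskeleton control, ALPK2 is a kinase, and FOXD2-AS1 is a long non-coding RNA.

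The sequences before the transcription start were compared because a shared promoter element is a property that the choice of genes did not use. RefSeq (GRCh38.p14) gave 10 promoter windows of 250 bases for 9 of the 10 genes, CEP120 having 2. The windows were searched on both strands for the GC box GGGCGG, the NF-Y binding element CCAAT, the TATA box TATAAA, the cell-cycle promoter element TTTGAA, the cyclic AMP response element TGACGTCA and the core of the interferon-stimulated response element, with overlapping matches counted. GGGCGG stood in 5 of the 10 windows, against 42.6% of all 35116 promoter windows of the same length. The interferon-type core stood in 1 window (3.02% of all promoters) and TATAAA in 1 (10.7%). The NF-Y, cell-cycle and cyclic AMP elements stood in 0 of the 10 windows, against 32%, 13.3% and 1.65% of all promoters. A match is a run of letters and not a shown binding site.

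Windows of 4 genes are printed 5′ to 3′ on the gene's strand with the matches in capitals: LHX4 (chr1:180230014-180230263, plus strand), which holds the most GC boxes, FOXD2-AS1 (chr1:47434642-47434891, minus strand), which holds the interferon-type element, and MAD1L1 (chr7:2232946-2233195, minus strand) and ALPK2 (chr18:58629092-58629341, minus strand), which hold no match and belong to the genes that were lower in the WT knockdown.
LHX4: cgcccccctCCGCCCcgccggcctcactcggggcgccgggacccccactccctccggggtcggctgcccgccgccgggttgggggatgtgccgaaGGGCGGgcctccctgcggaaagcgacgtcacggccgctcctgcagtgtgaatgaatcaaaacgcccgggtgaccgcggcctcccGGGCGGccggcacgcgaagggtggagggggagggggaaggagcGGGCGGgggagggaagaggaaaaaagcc
FOXD2-AS1: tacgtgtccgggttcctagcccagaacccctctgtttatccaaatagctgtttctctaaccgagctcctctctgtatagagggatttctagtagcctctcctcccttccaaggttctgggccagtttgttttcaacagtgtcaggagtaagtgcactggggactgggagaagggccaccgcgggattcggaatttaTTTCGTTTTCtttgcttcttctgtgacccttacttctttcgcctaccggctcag
MAD1L1: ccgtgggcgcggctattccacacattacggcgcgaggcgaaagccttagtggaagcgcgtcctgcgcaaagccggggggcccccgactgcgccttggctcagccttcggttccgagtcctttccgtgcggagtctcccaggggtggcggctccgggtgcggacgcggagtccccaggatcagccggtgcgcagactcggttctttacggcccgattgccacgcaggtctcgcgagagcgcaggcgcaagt
ALPK2: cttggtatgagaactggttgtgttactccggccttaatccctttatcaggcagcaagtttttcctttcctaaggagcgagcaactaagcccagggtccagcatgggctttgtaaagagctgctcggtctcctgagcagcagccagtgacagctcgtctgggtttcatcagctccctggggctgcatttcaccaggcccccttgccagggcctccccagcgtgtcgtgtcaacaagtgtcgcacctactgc
The LHX4 window had 4 GGGCGG matches and 75.2% G or C, and the FOXD2-AS1 window had 50.4% G or C, against a median of 58% over all promoters. MAD1L1 and ALPK2 had 68.4% and 56% G or C. No motif of the 6 was common to the 3 genes that were lower in the WT knockdown: CLDN1 had 2 GGGCGG matches and the other two had none.

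MTDH was checked first. Its probe read 10.71 and 10.69 in the controls on the log2 signal scale used throughout, with 9.59, 9.79 and 9.90 after the WT siRNA and 9.87, 9.75 and 9.68 after the isoform siRNA. Both knockdowns lay below both controls and overlapped each other. MTDH fell by 0.94 ± 0.11 (SE) in the WT knockdown (adjusted p = 0.000123, limma) and by 0.93 ± 0.11 in the isoform knockdown (adjusted p = 0.000285, limma), and the knockdowns differed by 0.00 ± 0.10 (adjusted p = 0.977, limma). The probe thus showed a lower MTDH signal in both groups and did not tell the 2 forms apart. Which of the forms it reads was not settled, so how far either form fell is not shown. Between 20295 and 21761 probes were detected on each array. All 5 of the markers chosen for this line (VIM, CD44, CAV1, AXL, MSN) were detected on all 8 arrays. Of 5 markers chosen as absent or low in it, ESR1, PGR and CDH1 were detected on 0 arrays, while ERBB3 and KRT19 were detected on all 8. Of 7 markers of leukocytes, endothelium and fibroblasts, CD14 was detected on all arrays, CD3E and CDH5 on none, and PTPRC, PECAM1, DCN and LUM on 1, 1, 5 and 5 arrays. CD14 averaged 7.57 in the controls, 7.96 in the WT knockdown, with 7.86 in the isoform knockdown, and its part in any result was not tested.

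Opposite changes that passed the test in both comparisons with control were uncommon on these arrays. Of 22467 detected probes, 11576 (51.5%) passed limma's threshold (adjusted p under 0.05) in the WT knockdown against control and 9001 (40.1%) in the isoform knockdown against control. Opposite signs alone, whether or not they passed, were seen at 4749 probes (21.1%). Passing in both with the same sign was seen at 6766 probes (30.1%), and passing in both with opposite signs at 189 (0.841%). That last number fell to 45 without control replicate 1 and to 47 without control replicate 3, to 35 with median scaling of the arrays, and rose to 446 with control replicate 2 included. With both controls, 114 of the 189 probes were higher in the WT and lower in the isoform knockdown, and 75 the reverse. The 189 carried 155 gene symbols and had a median difference between knockdowns of 0.85, the sign left aside. All 10 genes described here had their brightest probe among the 189, which their choice on these same arrays favours.

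The 10 were near the top of that group but were not its 10 largest. Ranked by the size of the difference between the knockdowns, PIGW was number 1, ING3 number 5, ARHGAP11A number 19, CEP120 number 20, MAD1L1 number 23, KPNA1 number 24, FOXD2-AS1 number 27, LHX4 number 33, ALPK2 number 36 and CLDN1 number 54. Genes outside the 10 with large opposite changes, named after their values were seen, included ESS2 (WT knockdown 1.12, isoform knockdown -0.80), HMMR (0.65 and -0.73) and DPH2, whose 3 probes read -1.30 and 0.34, -0.79 and 0.81, and -0.72 and 0.64. With median scaling the WT rise of HMMR (0.35) and the isoform rise of the first DPH2 probe (0.05) did not pass. The latter was lost under 5 of 17 alternatives, among them leaving out either control. The ESS2 and HMMR values are those of 1 probe each. Averaged over the detected probes of a gene, ESS2 read 0.89 and -0.35, and HMMR 0.74 and -0.51. These 3 genes lay outside the 10 although their differences were larger than those of most of the 10. Histone probes, which were set apart from the choice, held ranks 3, 4 and 6 by the same measure.

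**Figure D1:**
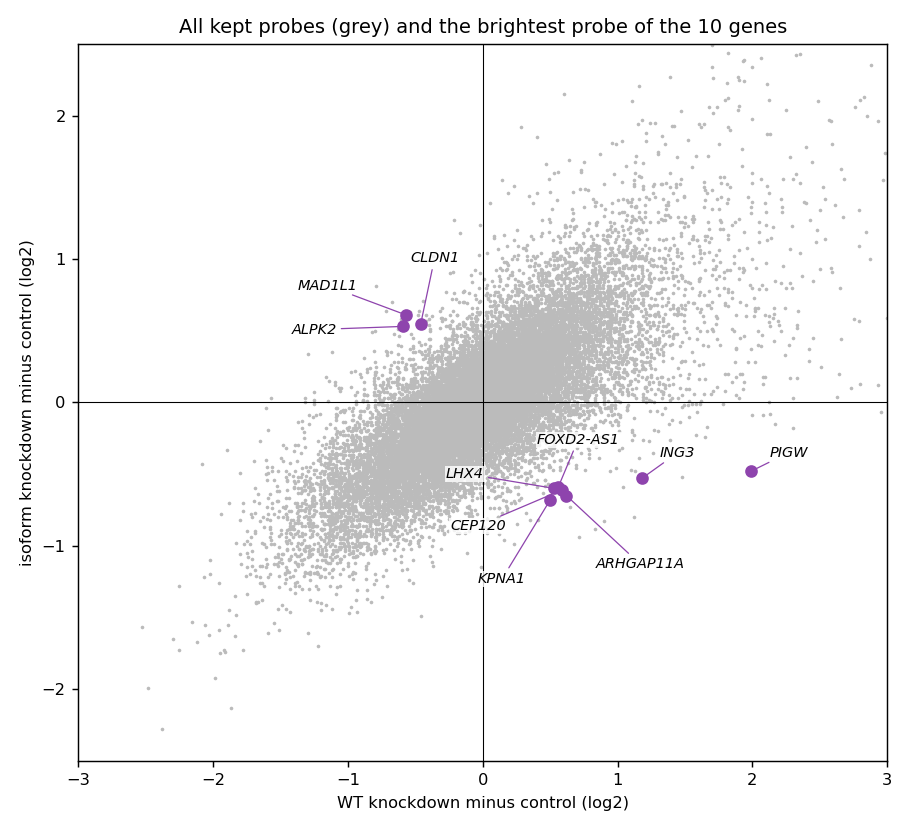
Change of each detected probe in the WT knockdown (x axis) and in the isoform knockdown (y axis), both as log2 difference from control; grey dots are the 22467 probes and purple points the brightest probe of the 10 genes. Most probes run along the rising diagonal, both axes share the control values, 33 probes lie outside the axes, and the 10 genes lie at the upper left and the lower right.

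The brightest probe of each of the 10 genes was detected on all 8 arrays. At all 10 the 3 groups did not overlap and the controls lay between the knockdowns, a pattern seen at 959 of all detected probes (4.27%). The place of the controls follows from how the genes were chosen, and that choice also favours groups that do not overlap. Of the 10, 7 were higher in the WT and lower in the isoform knockdown, and 3 (MAD1L1, ALPK2 and CLDN1) were the reverse. The smallest gap between a control array and a knockdown array was 0.20. The 2 control arrays differed by 0.08 to 0.27 within a gene, with replicate 1 the higher in 8 of the 10. The sizes of the changes were alike in most of them: the median change, sign left aside, was 0.58 in the WT knockdown, with 0.59 in the isoform knockdown. The levels were intermediate, at percentiles 36.4 to 69.5 of all detected probes.

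**Figure D2:**
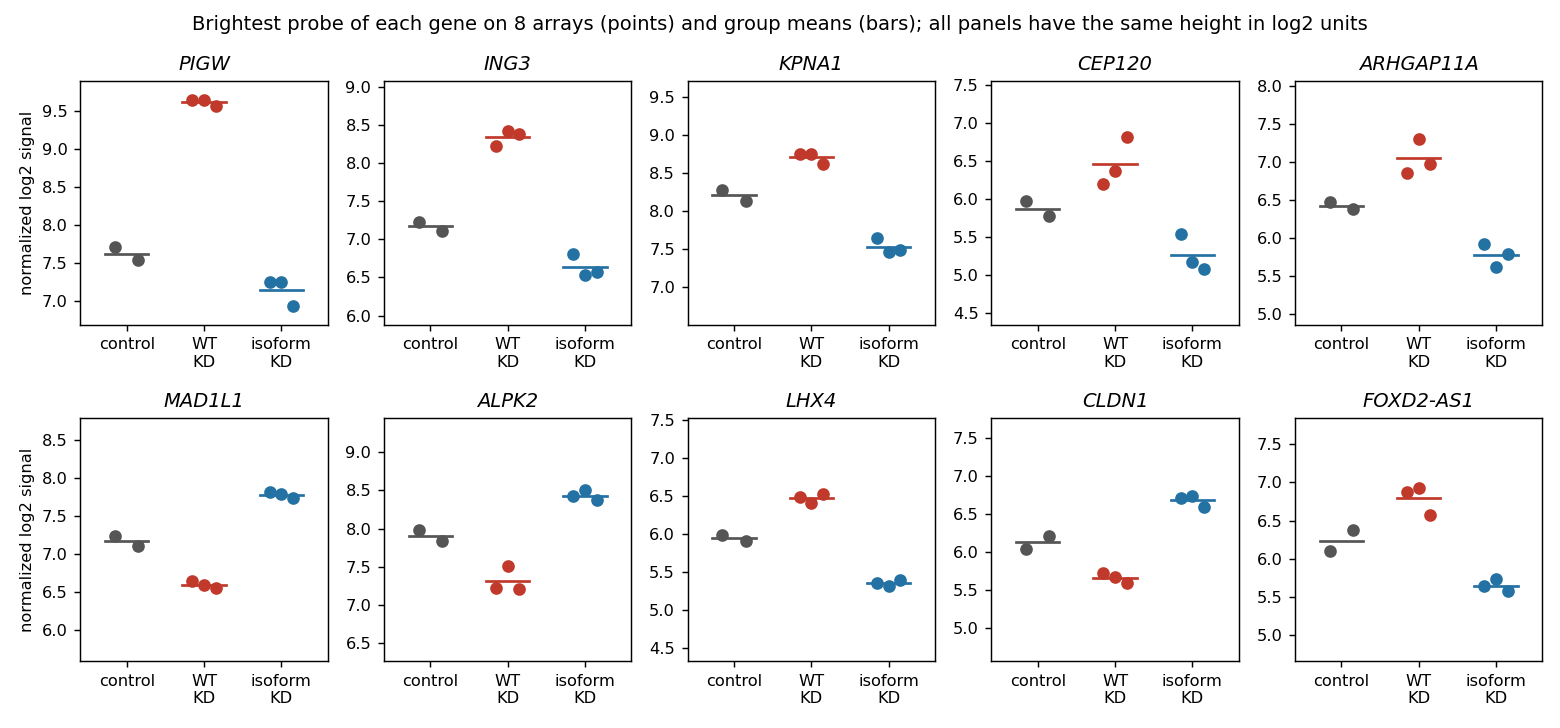
Normalized log2 signal of the brightest probe of each of the 10 genes on 8 arrays; points are arrays, bars are group means, and each panel spans the same height in log2 units. In the 7 genes other than MAD1L1, ALPK2 and CLDN1 the WT knockdown lies above and the isoform knockdown below the controls, and in those 3 the order is turned.

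PIGW, the acyltransferase that adds a fatty acid to the inositol of the glycosylphosphatidylinositol (GPI) anchor precursor, had the largest difference between the knockdowns of all 189 probes. Its signal was 7.72 and 7.54 in the controls, 9.65, 9.65 and 9.57 in the WT knockdown, with 7.26, 7.25 and 6.94 in the isoform knockdown. The WT knockdown arrays stood far above the others and agreed closely, while the isoform arrays lay just below the controls. PIGW was 3.98-fold higher in the WT knockdown than in control (log2 difference 1.99 ± 0.12, SE) and 1.4-fold lower in the isoform knockdown (-0.48 ± 0.12), a distance of 2.48 between the knockdowns on the log2 scale. The change in the WT knockdown made up 80.5% of that distance. A second, dimmer probe read 5.10 and 4.39 in the controls, 5.73, 5.57 and 5.65 in the WT knockdown, with 4.44, 4.54 and 4.53 in the isoform knockdown. There the WT knockdown again stood highest, but the isoform arrays lay within the span of the controls and were all not well above background. By that probe PIGW was at least 1.71-fold higher in the WT than in the isoform knockdown. The bound sets the WT mean against the dimmest signal that counted as detected on the isoform arrays.

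GPI anchors tether many proteins to the outer face of the plasma membrane, and the enzymes that build them work in series in the endoplasmic reticulum. Of 26 measured genes of that pathway other than PIGW, 4 passed the test as higher and 12 as lower in the WT knockdown, against 26.6% and 29.7% of all genes. In the isoform knockdown 2 were higher and 9 lower (19.9% and 24.1% of all genes). Passing in both with opposite signs was seen at 0 of the 26, near the 1.08% of all genes. Median changes were -0.26 and -0.10, against -0.02 and -0.03 over all genes. PIGU, a subunit of the transamidase that attaches the anchor, fell by 1.28 ± 0.11 in the WT knockdown (adjusted p = 1.57e-05, limma) and by 0.56 ± 0.11 in the isoform knockdown (adjusted p = 0.00282, limma). PIGN, which adds a phosphoethanolamine to the first mannose, fell by 1.18 ± 0.12 and by 0.55 ± 0.12 (adjusted p = 3.89e-05 and 0.00515, limma). PIGV, the second mannosyltransferase, fell by 0.55 ± 0.12 and by 0.99 ± 0.12 (adjusted p = 0.00399 and 0.000286, limma). DPM1, which makes the mannose donor, fell by 0.71 ± 0.10 and by 0.52 ± 0.10 (adjusted p = 0.000308 and 0.00296, limma). All 4 of these named genes were lower in both knockdowns by their brightest probe. A second probe read -0.76 and -0.09 for PIGN, and -0.58 and -0.07 for DPM1. The isoform falls of these genes were thus a feature of the brighter probe. Median scaling between arrays shifted the median probe by -0.19 in the WT and by -0.14 in the isoform knockdown. With it, 0 GPI genes were higher and 16 lower in the WT knockdown. Over all detected probes it also turned the WT calls, to 2849 higher and 7765 lower (5500 and 6076 without it).

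CLDN1, a claudin of tight junctions, was among the 3 genes with the reverse order. It read 6.04 and 6.21 in the controls, 5.72, 5.67 and 5.59 in the WT knockdown, with 6.70, 6.73 and 6.59 in the isoform knockdown. The controls lay midway, and arrays of a knockdown group varied less than the groups differed. CLDN1 was 1.38-fold lower in the WT knockdown (-0.46 ± 0.10) and 1.47-fold higher in the isoform knockdown (0.55 ± 0.10). Its distance between the knockdowns, 1.02 ± 0.09, was the smallest of the 10 genes.

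Among 19 other measured tight junction and cell polarity genes, 2 were higher and 9 lower in the WT knockdown, against 26.6% and 29.7% of all genes. In the isoform knockdown 2 were higher and 6 lower, against 19.9% and 24.1% of all genes. Between the knockdowns, 4 were higher and 2 lower in the isoform group (19% and 18.8% of all genes). Against control, 0 passed in both with opposite signs, near the 1.08% of all genes. CLDN15, another claudin, rose by 1.93 ± 0.10 in the WT knockdown (adjusted p = 1.34e-06, limma) and read 0.09 ± 0.10 in the isoform knockdown (adjusted p = 0.49, limma). CLDN23 fell by 0.77 ± 0.10 and by 0.92 ± 0.10 (adjusted p = 0.000171 and 0.000157, limma). PARD3, a polarity scaffold, fell by 1.37 ± 0.11 and by 1.14 ± 0.11 (adjusted p = 1.57e-05 and 0.000112, limma), and was detected on 1 of the 3 WT knockdown arrays. CGNL1, a junction-associated protein related to cingulin, was not well above background in either knockdown and was at least 2.27-fold lower in the WT knockdown and at least 2.29-fold lower in the isoform knockdown (adjusted p = 1.86e-05 and 0.000124, limma). CLDN7, named after its values were seen, read 0.03 ± 0.12 in the WT knockdown (adjusted p = 0.867, limma) and rose by 0.82 ± 0.12 in the isoform knockdown (adjusted p = 0.000656, limma). The claudins named here thus moved in different patterns, and the median change of the list was -0.33 in the WT and -0.17 in the isoform knockdown. With median scaling 1 gene was higher and 12 lower in the WT knockdown, and 1 higher and 7 lower in the isoform knockdown. Over all detected probes that scaling gave 2849 higher and 7765 lower in the WT, and 2103 and 5753 in the isoform knockdown.

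ING3, a reader of methylated histone H3 and a subunit of the NuA4/TIP60 histone acetyltransferase complex, had the second largest distance between the knockdowns among the 10. Its brightest probe read 7.23 and 7.11 in the controls, 8.23, 8.43 and 8.39 in the WT knockdown, with 6.81, 6.53 and 6.57 in the isoform knockdown. The WT arrays stood well above the controls and the isoform arrays below them. ING3 was 2.26-fold higher in the WT knockdown (1.18 ± 0.12) and 1.45-fold lower in the isoform knockdown (-0.53 ± 0.12), and the first of these made up 68.8% of the distance between the knockdowns.

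The other ING3 probes did not share this pattern. A probe annotated to a different ING3 transcript read 6.79 and 6.65 in the controls, 7.16, 7.26 and 7.38 in the WT knockdown, with 6.96, 7.23 and 6.97 in the isoform knockdown. Both knockdowns lay above the controls there, by 0.54 ± 0.12 and 0.33 ± 0.12. Another probe, annotated to that same transcript, differed from control by 0.02 ± 0.16 and -0.20 ± 0.16 with overlapping groups, and the last was detected on 0 arrays. The lower signal in the isoform knockdown was thus clear at 1 of the 3 ING3 probes that could be measured, and the mean over these probes differed from control by 0.58 in the WT and -0.13 in the isoform knockdown.

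Of 21 other measured genes of the ING family and NuA4/TIP60 complex, 6 were higher and 6 lower in the WT knockdown, near the 26.6% and 29.7% of all genes. In the isoform knockdown 3 were higher and 4 lower, against 19.9% and 24.1% of all genes. The probe of BRD8, a bromodomain subunit, was not well above background in the controls and in the isoform knockdown, and BRD8 was at least 7.14-fold higher in the WT knockdown than in control (adjusted p = 6.78e-07, limma). EPC1, a scaffold subunit, rose by 1.90 ± 0.11 in the WT and by 0.86 ± 0.11 in the isoform knockdown (adjusted p = 2.39e-06 and 0.000365, limma). MEAF6 rose by 0.96 ± 0.11 in the WT knockdown (adjusted p = 0.000104, limma) and read 0.18 ± 0.11 in the isoform knockdown (adjusted p = 0.233, limma). YEATS4, a reader of acylated histones, fell by 0.66 ± 0.10 and by 0.84 ± 0.10 (adjusted p = 0.000584 and 0.000326, limma). Of the 21, 0 passed in both comparisons with opposite signs, near the 1.08% of all genes. The list had no common direction, with medians of 0.01 and -0.10. Median scaling gave 3 higher and 7 lower in the WT knockdown, against 2849 and 7765 of all 22467 detected probes.

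KPNA1, an importin alpha that binds nuclear localisation signals of cargo proteins, was the brightest of the 10 in the controls. It read 8.28 and 8.13 in the controls, 8.75, 8.75 and 8.62 in the WT knockdown, with 7.64, 7.46 and 7.49 in the isoform knockdown. The groups were well separated, and the isoform knockdown lay further from control than the WT knockdown. KPNA1 was 1.41-fold higher in the WT knockdown (0.50 ± 0.10) and 1.6-fold lower in the isoform knockdown (-0.68 ± 0.10). Its change in the isoform knockdown was the largest of the 10 genes. Under median scaling the WT change shrank to 0.18 and the isoform change grew to -0.92.

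Of 19 other measured genes of nuclear import, 9 were higher and 5 lower in the WT knockdown (26.6% and 29.7% of all genes), and 5 were higher and 5 lower in the isoform knockdown, near the 19.9% and 24.1% of all genes. The direction of the WT count depends on the scaling: median scaling gave 3 higher and 7 lower. Over all 22467 detected probes that scaling gave 2849 higher and 7765 lower. Importin alpha genes differed among themselves, KPNA4 rising by 0.71 ± 0.09 in the WT knockdown (adjusted p = 0.000186, limma) and reading 0.25 ± 0.09 in the isoform knockdown (adjusted p = 0.0558, limma). The KPNA4 rise did not pass with median scaling (0.35). Import receptors that work without importin alpha did not move together: TNPO1 rose by 0.78 ± 0.09 and by 1.21 ± 0.09 (adjusted p = 9.27e-05 and 2.6e-05, limma), and IPO7 rose by 0.84 ± 0.08 and by 1.02 ± 0.08 (adjusted p = 4.32e-05 and 4.68e-05, limma), while IPO5, named after its values were seen, fell by 0.65 and by 0.39 (adjusted p = 0.00133 and 0.0257, limma). The isoform fall of IPO5 was lost under 4 of 17 alternatives, among them leaving out either control. NUP50, a nuclear basket protein that helps release cargo from importin alpha, rose by 0.51 ± 0.09 and by 0.85 ± 0.09 (adjusted p = 0.00117 and 0.000144, limma), and the WT rise did not pass with median scaling (0.19). A second NUP50 probe read 1.03 and 0.82, with the WT knockdown the higher there. NUP153, a second nuclear basket protein, was the exception of this list. It averaged 9.73 ± 0.03 (SD, n = 2) in the controls, 10.13 ± 0.04 (SD, n = 3) in the WT knockdown, with 9.43 ± 0.10 (SD, n = 3) in the isoform knockdown. NUP153 thus rose by 0.40 ± 0.09 (adjusted p = 0.00536, limma) and fell by 0.30 ± 0.09 (adjusted p = 0.029, limma). The fall was lost under 4 of 17 alternatives, among them leaving out either control. With median scaling the rise was 0.05 and did not pass.

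LHX4, a LIM-homeodomain transcription factor known from pituitary and motor neuron development, whose GC-rich promoter is printed above, was dim but steady between replicates. It read 5.99 and 5.91 in the controls, 6.49, 6.41 and 6.53 in the WT knockdown, with 5.35, 5.32 and 5.39 in the isoform knockdown. No array lay near another group's range. LHX4 was 1.44-fold higher in the WT knockdown (0.53 ± 0.09) and 1.51-fold lower in the isoform knockdown (-0.60 ± 0.09), and by the authors' log2 values the changes were 0.33 and -0.32.

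Only 6 of 16 listed LIM-homeobox, LMO and cofactor genes had a detected probe. LHX3, the closest relative of LHX4, was not well above background in the controls and was at least 12-fold higher in the WT knockdown and at least 1.84-fold higher in the isoform knockdown by its brighter probe (adjusted p = 2.12e-07 and 0.000232, limma). A second LHX3 probe read -0.38 and -0.30, so the probes of LHX3 disagreed. LHX6 rose by 0.48 ± 0.13 in the WT knockdown (adjusted p = 0.0122, limma), which did not hold with median scaling (0.27) or without control replicate 3 (0.41). LMO4 fell by 0.31 ± 0.11 and by 0.44 ± 0.11 (adjusted p = 0.0446 and 0.013, limma), and neither fall passed when either control was left out. The WT fall of LMO4 was lost under 7 of 17 alternatives in all. LMO2 read 0.08 ± 0.13 in the WT knockdown (adjusted p = 0.612, limma) and fell by 0.41 ± 0.13 in the isoform knockdown (adjusted p = 0.0305, limma), a call lost under 7 of 17 alternatives, among them leaving out either control. Of these 6 genes, 0 passed in both comparisons with opposite signs, near the 1.08% of all genes.

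CEP120, needed for centriole elongation and for cilium assembly, had the widest spread between knockdown replicates. It read 5.97 and 5.78 in the controls, 6.20, 6.37 and 6.82 in the WT knockdown, with 5.54, 5.17 and 5.08 in the isoform knockdown. The WT arrays spanned more than their smallest distance from the controls, though no array crossed into another group. CEP120 was 1.51-fold higher in the WT knockdown (0.59 ± 0.19) and 1.53-fold lower in the isoform knockdown (-0.61 ± 0.19). In the authors' own log2 values these changes were 0.37 and -0.32.

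Among 18 other measured genes of centriole duplication and elongation, 5 were higher and 5 lower in the WT knockdown, against 26.6% and 29.7% of all genes. In the isoform knockdown 1 was higher and 9 lower (19.9% and 24.1% of all genes). Directly between the knockdowns, 2 were higher and 8 lower in the isoform group (19% and 18.8% of all genes). The median change was -0.02 in the WT and -0.34 in the isoform knockdown. The genes with the smallest adjusted p moved the same way in both knockdowns: POC1A fell by 0.84 ± 0.10 and by 0.77 ± 0.10 (adjusted p = 0.00015 and 0.000511, limma), POC1B by 0.93 ± 0.11 and by 0.82 ± 0.11 (adjusted p = 0.000138 and 0.00057, limma). KIAA0586, a centriole protein also needed for cilia, fell by 0.99 ± 0.12 and by 0.54 ± 0.12 (adjusted p = 0.00011 and 0.00534, limma). CEP164, of the distal appendages that dock the centriole at the membrane, fell by 0.93 ± 0.11 and by 0.53 ± 0.11 (adjusted p = 9.6e-05 and 0.00395, limma). Genes with a profile nearer that of CEP120, named after their values were seen, were PLK4, CEP152 and POC5. PLK4, the kinase that starts duplication, rose by 0.39 ± 0.12 in the WT knockdown (adjusted p = 0.0204, limma) and read -0.30 ± 0.12 in the isoform knockdown (adjusted p = 0.0674, limma). The rise was lost under 4 of 17 alternatives, among them median scaling (0.03) and leaving out control replicate 3 (0.25). CEP152, its scaffold, read 0.41 ± 0.22 (adjusted p = 0.155, limma) and fell by 0.82 ± 0.22 (adjusted p = 0.0167, limma), a fall that did not pass when either control was left out. A second CEP152 probe read 0.30 and -0.12. POC5 rose by 0.71 ± 0.10 (adjusted p = 0.000371, limma) and read -0.08 ± 0.10 (adjusted p = 0.56, limma), the rise not passing with median scaling (0.38). None of the 18 passed in both comparisons with opposite signs, near the 1.08% of all genes. With median scaling 0 were higher and 6 lower in the WT knockdown, and 0 higher and 11 lower in the isoform knockdown. Calls over all detected probes also turned downward then, to 2849 higher and 7765 lower in the WT, and 2103 and 5753 in the isoform knockdown.

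MAD1L1, which brings MAD2 to unattached kinetochores in the spindle checkpoint, was lower in the WT and higher in the isoform knockdown. Its brightest probe read 7.24 and 7.10 in the controls, 6.64, 6.59 and 6.56 in the WT knockdown, with 7.82, 7.79 and 7.73 in the isoform knockdown. Replicates of each knockdown were nearly equal. MAD1L1 was 1.49-fold lower in the WT knockdown (-0.57 ± 0.09) and 1.53-fold higher in the isoform knockdown (0.61 ± 0.09). A second, dimmer probe read 5.15 and 5.29 in the controls, 4.78, 4.67 and 4.88 in the WT knockdown, with 5.21, 5.06 and 4.75 in the isoform knockdown. That probe was detected on 0 of the WT arrays, and its isoform arrays overlapped both other groups. It differed from control by -0.21 ± 0.14 in the isoform knockdown, so the higher signal there was a feature of the brighter probe.

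Of 18 other measured spindle checkpoint and kinetochore genes, 4 were higher and 9 lower in the WT knockdown (26.6% and 29.7% of all genes). In the isoform knockdown 1 was higher and 12 lower (19.9% and 24.1% of all genes), and the medians were -0.23 and -0.36. SPC25, of the NDC80 complex that holds microtubules, fell by 0.91 ± 0.14 and by 0.99 ± 0.14 (adjusted p = 0.000573 and 0.000673, limma). A second SPC25 probe read -2.48 and -1.99. MAD2L1BP, which helps switch the checkpoint off, rose by 0.73 ± 0.10 and by 0.70 ± 0.10 (adjusted p = 0.000221 and 0.000582, limma), and neither rise passed with median scaling (0.39 and 0.42). A second MAD2L1BP probe read only 0.15 and 0.20. TPR, the nuclear pore protein to which MAD1 is anchored in interphase, rose by 0.68 ± 0.09 in the WT knockdown (adjusted p = 0.000241, limma) and read 0.24 ± 0.09 in the isoform knockdown (adjusted p = 0.0613, limma). The TPR rise did not pass with median scaling (0.34). TTK, the checkpoint kinase also called MPS1, rose by 0.38 ± 0.10 in the WT knockdown (adjusted p = 0.0102, limma) and fell by 0.39 ± 0.10 in the isoform knockdown (adjusted p = 0.0122, limma), the reverse of MAD1L1. Neither TTK call passed when either control was left out, and with median scaling the WT change was 0.03. Between the knockdowns 6 of the 18 were lower and 0 higher in the isoform group, against 18.8% and 19% of all genes. With median scaling those 6 became 3, and the higher genes of both comparisons with control became 0. Over all detected probes, calls lower in the isoform than the WT knockdown also went from 3512 to 1875. Calls higher than control went from 5500 to 2849 in the WT and from 4285 to 2103 in the isoform knockdown.

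ARHGAP11A, a GTPase-activating protein that peaks in dividing cells, read 6.48 and 6.38 in the controls, 6.86, 7.31 and 6.98 in the WT knockdown, with 5.92, 5.62 and 5.80 in the isoform knockdown. All WT arrays lay above and all isoform arrays below the controls. ARHGAP11A was 1.53-fold higher in the WT knockdown (0.62 ± 0.14) and 1.57-fold lower in the isoform knockdown (-0.65 ± 0.14), and by the authors' log2 values the changes were 0.44 and -0.39. A probe annotated to a different ARHGAP11A transcript read 4.57 and 4.92 in the controls, 5.82, 5.38 and 5.74 in the WT knockdown, with 4.94, 5.52 and 5.56 in the isoform knockdown. Here both knockdowns lay above both controls, by 0.90 ± 0.21 and 0.60 ± 0.21. The mean of these probes was -0.03 from control in the isoform knockdown, and the remaining probe was detected on 0 arrays. ARHGAP11B is a near-identical partial copy of this gene. Whether these probes also read it was not tested, and the ARHGAP11A values are uncertain in that respect.

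**Figure D3:**
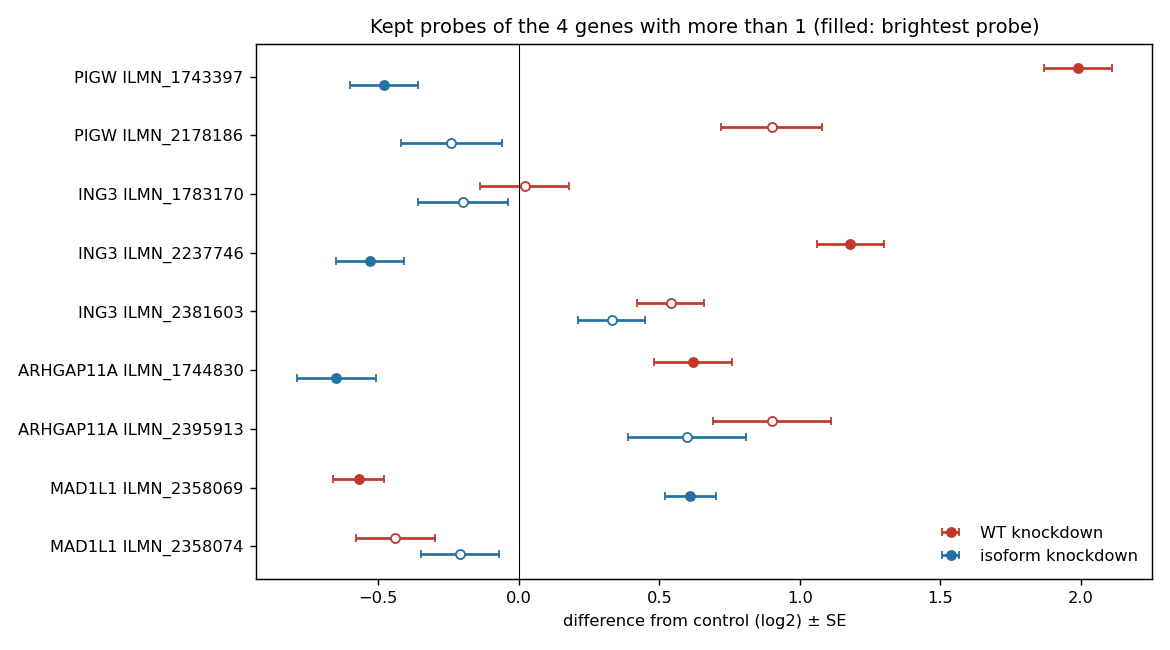
Difference from control (log2, x axis) with its standard error for every detected probe of PIGW, ING3, ARHGAP11A and MAD1L1, the 4 genes with more than 1 such probe; red is the WT knockdown, blue the isoform knockdown, and filled points are the brightest probe. The brightest probes have red and blue on opposite sides of 0, and of the 5 other probes the dim PIGW probe and the ING3 probe near 0 also do, with an isoform value within 1.5 standard errors of 0.

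The probes of a gene therefore differed in how far they followed its brightest probe. Of the 5 other detected probes of PIGW, ING3, ARHGAP11A and MAD1L1, 2 had opposite signs against control and 0 had 3 groups apart with the control between. The remaining 6 genes, KPNA1, CEP120, ALPK2, LHX4, CLDN1 and FOXD2-AS1, had 1 probe each, so no second probe bears on them.

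ALPK2, a member of the small alpha-kinase family, read 7.98 and 7.83 in the controls, 7.22, 7.51 and 7.21 in the WT knockdown, with 8.43, 8.50 and 8.37 in the isoform knockdown. The order was that of MAD1L1 and CLDN1. ALPK2 was 1.51-fold lower in the WT knockdown (-0.59 ± 0.12) and 1.44-fold higher in the isoform knockdown (0.53 ± 0.12). Under median scaling these changes were -0.89 and 0.27. Of 5 other alpha-kinase genes listed, only EEF2K, the kinase of elongation factor 2, had a detected probe. EEF2K fell by 0.84 ± 0.08 and by 0.60 ± 0.08 (adjusted p = 4.22e-05 and 0.000589, limma) and so did not share the pattern of ALPK2.

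FOXD2-AS1, a long non-coding RNA transcribed next to FOXD2 and studied in several cancers, read 6.10 and 6.37 in the controls, 6.88, 6.93 and 6.57 in the WT knockdown, with 5.64, 5.73 and 5.57 in the isoform knockdown. Its controls differed more from each other than those of the other 9 genes, and the lowest WT array lay 0.20 above the higher control. FOXD2-AS1 was 1.47-fold higher in the WT knockdown (0.56 ± 0.13) and 1.51-fold lower in the isoform knockdown (-0.59 ± 0.13), and by the authors' log2 values the changes were 0.38 and -0.34. FOXD2, its protein-coding neighbour, read 0.04 ± 0.12 and -0.08 ± 0.12 (adjusted p = 0.817 and 0.615, limma). The other forkhead D genes with a detected probe were FOXD4 and FOXD4L1, near-identical copies whose signals cannot be told apart. FOXD4 rose by 3.20 ± 0.09 in the WT knockdown and by 0.84 ± 0.09 in the isoform knockdown (adjusted p = 6.24e-08 and 0.000124, limma). FOXD4L1 rose by 3.67 ± 0.18 and by 0.98 ± 0.18 (adjusted p = 9.62e-07 and 0.00226, limma). A second probe read 2.08 and 0.18 for FOXD4, and 2.79 and 0.57 for FOXD4L1.

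Over all 9 lists, 2 of 131 measured genes, NUP153 and TTK, passed in both comparisons with control with opposite signs (1.53%), against 132 of 12239 genes (1.08%). The lists hold pathway partners, family members or neighbours of 9 of the 10 genes, and that share is near the background.

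**Figure D4:**
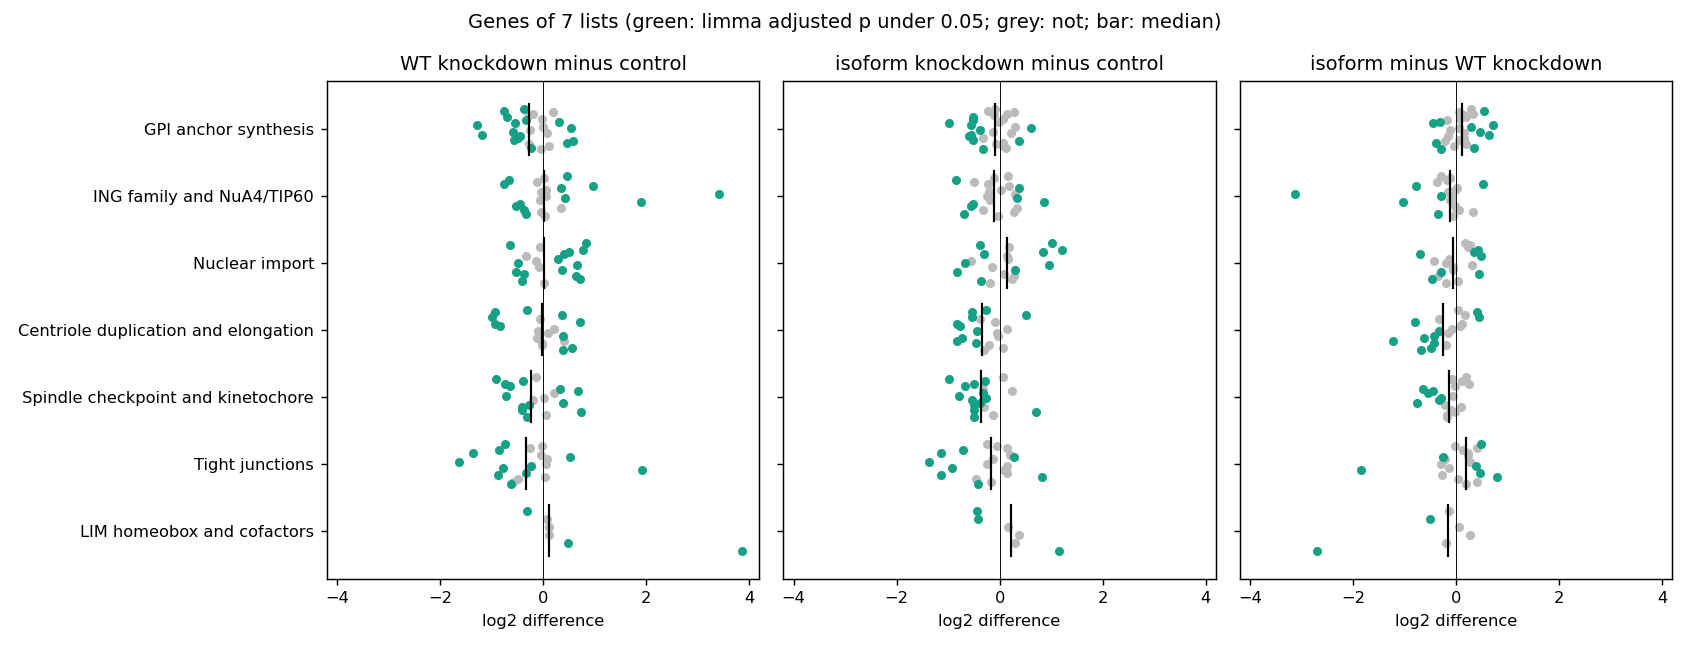
Log2 difference of each measured gene in 7 of the lists (rows) for the WT knockdown against control, the isoform knockdown against control and the isoform against the WT knockdown (panels); green points passed limma's adjusted p under 0.05, grey did not, and black bars are list medians. Green points lie on both sides of 0 in the first panel for all 7 lists, and the centriole and spindle lists lie mostly below 0 in the second panel.

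Of 20 genes annotated next to the 10 genes in RefSeq, 6 had a detected probe and the others could not be measured. Of the 6, 0 passed in both comparisons with opposite signs, and with 1.08% of all genes doing so that count is near the background. MYO19, a myosin gene that overlaps PIGW on the opposite strand, read 0.17 ± 0.09 in the WT knockdown (adjusted p = 0.164, limma) and rose by 0.32 ± 0.09 in the isoform knockdown (adjusted p = 0.0221, limma). That call was lost under 6 of 17 alternatives, among them leaving out either control. The MYO19 rise was 0.12 with median scaling and 0.13 as the mean of its probes. GGNBP2, on the other side of PIGW, rose by 0.36 ± 0.10 in the WT knockdown (adjusted p = 0.0158, limma) and read 0.02 ± 0.10 in the isoform knockdown (adjusted p = 0.898, limma), and its rise was lost without control replicate 3 (0.30) and with median scaling (0.01). ACBD6, which overlaps LHX4, fell by 0.93 ± 0.11 and by 0.43 ± 0.11 (adjusted p = 0.00011 and 0.0122, limma), and QSOX1, on the other side, fell by 0.41 ± 0.11 and by 0.44 ± 0.11 (adjusted p = 0.00979 and 0.00968, limma). The ACBD6 fall in the isoform knockdown did not pass when either control was left out, and neither QSOX1 fall passed without control replicate 3. The probes of QSOX1 disagreed, their mean lying 0.02 and 0.17 above control. TMEM207, beside CLDN1, read 0.17 ± 0.19 and 0.20 ± 0.19 (adjusted p = 0.468 and 0.427, limma).

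The probes most like each of the 10 were found by the root-mean-square distance, in log2 units, between their 8 array values after each probe was set to 0 at its control mean. The smallest distances were those of MAD1L1 to AMZ2 (0.06) and LGALS8 (0.07), and of LHX4 to ZZZ3 (0.07) and RBM12 (0.09). ZZZ3 was also the probe nearest to KPNA1 (0.10), followed by LHX4 itself (0.10). CLDN1 and ALPK2 shared a near probe, HS1BP3 (0.08 and 0.10), with PGAM1 (0.09) the next for CLDN1 and KXD1 (0.09) the nearest for ALPK2. ARHGAP11A was nearest to HMMR (0.12) and KPNA1 (0.14), CEP120 to RBM12 (0.15) and the histone gene H3C2 (0.16), and FOXD2-AS1 to CCDC93 (0.14) and ZBED5 (0.14). PIGW and ING3 had more distant nearest probes, RNY5 (0.27) and ZNF721 (0.27) for PIGW and ZKSCAN5 (0.21) and ESS2 (0.22) for ING3. PIGW was the furthest from its nearest probe. The distance is not scaled to the size of a change, and PIGW and ING3 had the largest WT changes of the 10. With so many probes searched, a small distance is favoured, and no reference distance was computed.

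In bulk RNA a lower signal can come from less RNA per cell or from fewer cells that hold it, and the arrays do not tell these apart. The authors' own log2 values are those on which the 10 genes were chosen, so their opposite signs there follow from the choice. In them PIGW read 1.78 and -0.38 from control and CLDN1 -0.26 and 0.36.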

How the data were processed

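Per the file headers, the deposited table of signals gives the authors' average signal intensity and detection p-value for 47231 probes. A second deposited table holds the authors' log2 values, already normalized between arrays. The submitters' processing notes list R 3.1.0; no source used here gives the scanner, its software or a build. Control replicate 2 equalled the mean of replicates 1 and 3 in signal and detection p-value and was left out. Knockdown signals were tabulated in a row order unlike that of the probe IDs (rank correlation with the authors' log2 values -0.00219 to 0.000506, against 1 for controls). Each row matched exactly 1 probe of the log2 table by its ranks on 6 arrays and was put back there.

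Intensities were background-corrected with detection p-values (offset 16), quantile normalized and log2 transformed by neqc (limma 3.58.1, R 4.3.3). Probes with detection p under 0.05 on at least 3 of 9 columns were kept, 22467 in all, and the number of arrays limits precision (median SD 0.0851 in controls, 0.124 and 0.117 in the WT and isoform knockdowns). The 8 arrays were fitted together with limma (lmFit, eBayes, 5 residual and 4.33 prior degrees of freedom), two-sided, with Benjamini-Hochberg adjustment over all kept probes within each comparison, threshold 0.05; the fit was tested on simulated data. A gene is represented by its kept probe with the highest mean. Symbols came from the platform annotation (30113 probes with 1 symbol, 8 with several, 17110 with none). Where a probe was detected on no array of a group, a fold is given as a bound.

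The 10 genes, the 9 lists and the tests were chosen with earlier results of these data known; a list for ARHGAP11A is not reported here. Named genes were the 10 genes, MTDH, up to 4 genes a list with the smallest adjusted p in lists with at least 3 measured genes, the 2 nearest probes of each gene and the adjacent genes; EEF2K, NUP153, IPO5, ESS2, HMMR, DPH2, CLDN7, PLK4, CEP152 and POC5 were named after their values were seen. Alternatives tried were the authors' log2 values, other normalization, background correction, filters, variance settings, a replicate block, control replicate 2 included, each array left out, and the mean of a gene's probes.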

Additional observations from a re-analysis of the deposited data

How the results depend on the processing

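All 10 genes had opposite signs against control under all 17 alternatives, which their choice on the authors' log2 values of these arrays favours. Of 510 values for them, 441 moved by less than the replicate SD, 69 moved by more and 0 reversed. The number of probes called in both comparisons with opposite signs, 189, became 35 with median scaling, 298 with trend and robust variance settings and 446 with control replicate 2 included, and ranged from 45 to 180 when an array was left out. The number called between the knockdowns, 7399, became 4920 with median scaling and lay between 5920 and 6964 when an array was left out. The number called in the isoform knockdown against control, 9001, lay between 5857 and 9211 when an array was left out, falling to 5857 and 5897 without control replicate 1 or 3. In the WT knockdown it was 11576 and lay between 8945 and 11516. With a control left out, the lone control is assumed to vary like the other groups. Median scaling split the calls into 2849 higher and 7765 lower in the WT knockdown (5500 and 6076 as reported), 2103 and 5753 in the isoform knockdown (4285 and 4716), and 3045 and 1875 between the knockdowns (3887 and 3512). The causes were not tested.

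Of 106 calls of named genes outside the 10, 30 were lost under at least 1 alternative, 18 of them when an array was left out. Averaging a gene's probes reversed the falls of QSOX1 to 0.02 and 0.17. Averaging a gene's probes brought the isoform change of ARHGAP11A to -0.03, of ING3 to -0.13 and of MAD1L1 to 0.20. Replicate numbers did not pair the samples (correlations of same-numbered deviations -0.028 to 0.058). With the replicate block, 10929, 7970 and 6836 probes passed in the 3 comparisons and 132 in both with opposite signs. Dim probes limit what can be seen: signals under the detection threshold have only a bound.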
